A study of Homo sapiens with 30 samples.

Results

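The comparison described here is between a high dose of 500 µg/mL and a low dose of 20 µg/mL of Samul-tang, an ethanol extract given to A549 cells for 24 h. It rests on 4 of the 30 libraries of the study, the replicates that the labels number 2 and 3 at each of these doses, and all 17701 tested genes are considered. The members are therefore set by the labels and not by any measured value. The other groups were Samul-tang at a medium dose of 100 µg/mL (2 libraries), Sagunja-tang at the same doses (1 library per dose), Palmul-tang and Sibjeondaebo-tang at the same doses (3 libraries per dose) and vehicle (3 libraries), which makes 13 groups. Vehicle is given as 0.1% DMSO in the sample labels and as 2% in the text of the series. A549 is a single established line from a human lung carcinoma, so nothing here speaks of other lung cells or of an animal. The labels do not say whether replicates 2 and 3 were separate cultures. The p-values measure only the spread between libraries of a group, shared over all 13 groups.

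Samul-tang is a traditional formula made from the roots or rhizomes of Angelica, Cnidium, Rehmannia and Paeonia. Plant extracts carry many small molecules, and cultured epithelial cells meet such molecules with a few well-described gene programmes. The aryl hydrocarbon receptor (AhR) binds planar ligands and turns on CYP1 enzymes, and NRF2 is released from its inhibitor KEAP1 by electrophiles and turns on genes for glutathione synthesis, NADPH supply and haem breakdown. A549 cells carry a KEAP1 mutation, so their NRF2 targets are high before any treatment. They also keep a set of secreted liver-type plasma proteins and respond to cytokine signals through NF-κB.

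The 4 libraries held 28579639 to 33666990 counts, within the range of 23986637 to 35159898 over the series, and the counts are of whole genes. All 10 A549 and epithelial markers were at 1 CPM (counts scaled to a common library size) or more in every Samul-tang library, and CDKN2A and CDKN2B, which are lost in A549, were listed at 0 in all of them. Markers of other cells were mostly low at both doses, but not all were. The 8 alveolar type II markers summed to 37.5 to 38.5 CPM at the low dose and 36.2 to 36.9 CPM at the high dose. Of the 8, 2 reached 1 CPM or more at both doses, as did 4 of 7 fibroblast and 1 of 5 endothelial markers. Over the Samul-tang libraries SFTPA1 was at 0, ABCA3 at 24.1 to 28.2 CPM and SFTPD at 6.61 to 9.73 CPM. KDR, an endothelial marker, was at 17.4 to 21.4 CPM, and the fibroblast marker COL3A1 at 6.91 to 9.21 CPM. ABCA3 and KDR were thus near the A549 and epithelial marker EPCAM, at 19.4 to 22.7 CPM. The haemoglobin gene HBB, a marker of blood, ranged from 9.85 to 27.9 CPM over the Samul-tang libraries. In these bulk samples, fewer cells of a type and less RNA per cell cannot be told apart. The 3 vehicle libraries and the 3 high-dose Sibjeondaebo-tang libraries stood apart from all others on the first 2 principal components. The vehicle library codes differ in form from those of the extracts, so vehicle and code cannot be told apart, although the titles of all 30 libraries name the same batch. The codes of Samul-tang and Sagunja-tang also begin differently from those of Palmul-tang and Sibjeondaebo-tang, so code and formula cannot be told apart where formulas are compared.

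From 20 to 500 µg/mL of Samul-tang, of 17701 genes, 238 passed an adjusted p of 0.05 (1.34%), of which 107 were higher (0.604%) and 131 were lower (0.74%) at the high dose. At an unadjusted p under 0.05 there were 2456 genes, and 16% of changes of 0.25 on the log2 scale were recovered on simulated data. The test was edgeR's quasi-likelihood test with a spread shared over all 13 groups, with Benjamini-Hochberg adjustment over all genes. The median log2 change was 0.295 in size among the higher genes and 0.352 among the lower genes, against 0.109 over all genes tested. Only 20 higher and 33 lower genes changed by 0.5 or more on the log2 scale. Among genes with a mean log2 CPM of 2 or more, the largest changes were 0.836 upward, for haem oxygenase HMOX1, and 0.803 downward, for the apolipoprotein APOB. Of the higher genes 106 were protein-coding (99.1%), as were 119 of the lower genes (90.8%) and 78.8% of all genes tested. In each of the 238 genes the high and low libraries did not overlap, a state that 22.5% of all tested genes reached in each direction.

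Many of these calls were lost when 1 library was left out. Such a fit leaves a dose with 1 library and lowers the power for every gene. A lost call therefore does not by itself show that a single library made the change. Of the 238 genes, 33 passed in each of the 4 fits that left out 1 high or low library, and 93 passed in none of them. The number of calls was 58 without high-dose replicate 2, 106 without high-dose replicate 3, 149 without low-dose replicate 2 and 49 without low-dose replicate 3. The 33 genes included CYP1A1, CYP1B1, ALDH3A1, HMOX1, GCLM, ALDOC, SLC2A1, SLC7A5 and NOTCH3 on the higher side and CXCL1, CXCL5, ANKRD1, KNG1, HP and ITGA1 on the lower side.

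**Figure D1:**
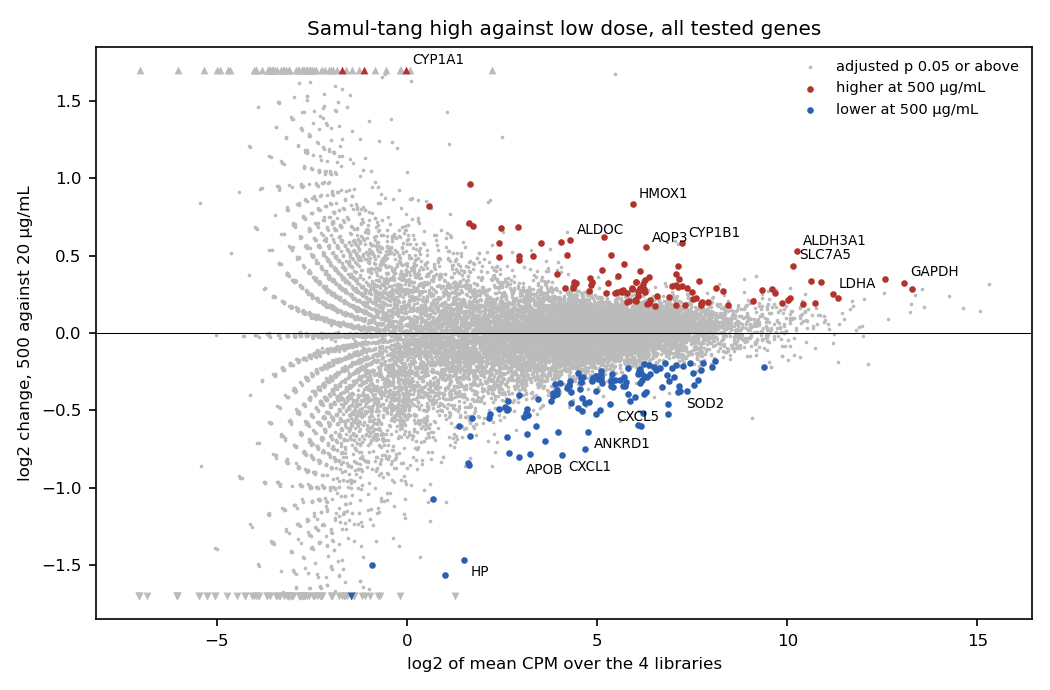
Each point is 1 of the 17701 genes tested, with the log2 of its mean CPM over the 4 libraries on the x axis and the log2 change from 20 to 500 µg/mL on the y axis. Red marks the 107 genes that were higher and blue the 131 genes that were lower at 500 µg/mL by edgeR's adjusted p, grey marks the rest, and triangles stand for genes whose change exceeds 1.7 in size. Most coloured points at high expression lie within 0.5 of the zero line.

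Of 11 tested AhR targets, 4 rose and none fell at the high dose, and the list's median log2 change was 0.196, against -0.0021 over all genes. CYP1B1 (chr2:38066973-38109902, minus strand), which oxidises polycyclic hydrocarbons and oestrogens, was at 117 and 126 CPM at the low dose and 182 and 181 CPM at the high dose. Both medium-dose libraries, at 122 and 123 CPM, lay within the low-dose values. The log2 change was 0.58 (SE 0.046, edgeR adjusted p = 5.54e-10), and 0.57 from medium to high (edgeR adjusted p = 1.6e-09). ALDH3A1 (chr17:19737984-19748943, minus strand), an aldehyde dehydrogenase that A549 cells express strongly, was at 1025 and 974 CPM at the low dose, 1141 and 1124 CPM at the medium dose and 1464 and 1426 CPM at the high dose. Its 3 dose groups did not overlap, and the log2 change from low to high was 0.53 (SE 0.055, edgeR adjusted p = 2.41e-07).

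CYP1A1 (chr15:74719542-74725610, minus strand), the standard reporter of AhR activity, was close to undetected at the low dose, with 0.279 and 0.0906 CPM, and reached 2.04 and 1.53 CPM at the high dose. The fitted log2 change of 3.30 (SE 0.387, edgeR adjusted p = 2.32e-06) is set by few reads at the low dose and is less certain than the direction. NFE2L2, which encodes NRF2 and is itself an AhR target, was at 60.8 and 58.6 CPM against 69.4 and 68.7 CPM (log2 change 0.21, edgeR adjusted p = 0.0362), and its adjusted p was 0.28 without low-dose replicate 3. Other members did not pass: TIPARP was 0.20 higher (edgeR adjusted p = 0.13) and UGT1A6 was at -0.28 on the log2 scale (edgeR adjusted p = 0.088). In the annotation RMDN2-AS1 shares exon sequence with CYP1B1 on its own strand, and RMDN2 and CYP1B1-AS1 lie across it on the opposite one. How strand was set when reads were counted is not given in the sources used here.

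Bases just before the RefSeq start of target genes are shown here because the gene lists are named after factors that bind such stretches. They come from RefSeq on GRCh38.p14, run 5′ to 3′ on the strand of the gene, and carry the searched letters in capitals on whichever strand they occur. The core letters searched over the 250 bases before the start, on both strands, were GCGTG for AhR, TGACNNNGC for NRF2, TGATGNAA for ATF4, ACGTG for HIF and, for NF-κB, GGG followed after 5 free bases by CC. Of 27305 promoters of that length, 31.9%, 11.0%, 3.19%, 18.7% and 53.7% held them, in that order. GCGTG and ACGTG share 4 letters and can overlap, and a match is a description of the letters, not a sign of binding. Starts differ between annotations: of the 250 bases, 82 for CYP1A1, 26 for GCLM, 134 for ASNS, 90 for BNIP3, 4 for ANGPTL4, 108 for P4HA1, 102 for CXCL5 and 0 for CXCL1 lie in exons of GENCODE 29, so the CYP1A1 stretch falls inside the gene coordinates given above.
CYP1A1, AhR letters, chr15:74725569-74725598, minus strand: tccagggaaggagGCGTGgccacacgtaca
GCLM, NRF2 letters, chr1:93909446-93909475, minus strand: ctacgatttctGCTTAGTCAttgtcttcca
ASNS, ATF4 letters, chr7:97872458-97872487, minus strand: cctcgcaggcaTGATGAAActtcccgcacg
BNIP3, HIF letters, chr10:131982040-131982069, minus strand: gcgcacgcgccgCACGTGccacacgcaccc
ANGPTL4, HIF letters, chr19:8363908-8363937, plus strand: gggaaagaagagtCACGTctcccacggttc
P4HA1, HIF letters, chr10:73096936-73096965, minus strand: gtgtgatcgagctCACGTagcgagggctgc
CXCL5, NF-κB letters, chr4:73998748-73998777, minus strand: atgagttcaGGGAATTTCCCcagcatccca
CXCL1, NF-κB letters, chr4:73869243-73869392, plus strand: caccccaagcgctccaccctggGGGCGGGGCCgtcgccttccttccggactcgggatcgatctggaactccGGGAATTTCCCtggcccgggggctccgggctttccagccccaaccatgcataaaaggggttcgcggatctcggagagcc
CXCL1 and CXCL5, both lower at the high dose, carry the same run of letters, GGGAATTTCCC, at -79 and -91 bases from their starts. Among genes that passed the test and had an entry, the letters were found in 2 of 2 AhR targets, 2 of 6 NRF2 targets, 1 of 2 ATF4 genes, 3 of 5 hypoxia targets and 3 of 3 NF-κB genes. HMOX1 and CYP1B1 are not in the table used.

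Among NRF2 targets, 9 of 32 tested members rose and none fell, with a median log2 change of 0.101 and 29 members above 0. HMOX1 (chr22:35380361-35394214, plus strand), which breaks haem down to biliverdin, iron and carbon monoxide, was at 44.3 and 43.4 CPM at the low dose, 51.6 and 48.5 CPM at the medium dose, 78.9 and 77.6 CPM at the high dose and 50.2, 57.6 and 51.7 CPM in vehicle. The high-dose libraries lay above every library of the other 3 groups, and the low-dose libraries lay below every one. The low-to-high change was 1.79-fold, or 0.84 on the log2 scale (SE 0.065, edgeR adjusted p = 5.06e-10), and its highest adjusted p without any 1 library was 4.2e-07. GCLM and GCLC encode the subunits of glutamate-cysteine ligase, the first step of glutathione synthesis. GCLM was at 121 and 128 CPM against 160 and 157 CPM (log2 change 0.35, SE 0.051, edgeR adjusted p = 9.77e-05), and GCLC at 197 and 205 CPM against 233 and 230 CPM (log2 change 0.20, SE 0.044, edgeR adjusted p = 0.011). GCLM passed without any 1 library, and GCLC had an adjusted p of 0.15 without high-dose replicate 2.

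The pentose phosphate enzymes PGD, which yields NADPH, and TKT also passed, with log2 changes of 0.19 and 0.20, as did OSGIN1 at 0.29. Neither of these enzymes passed in any fit without 1 high or low library, and OSGIN1 had an adjusted p of 0.38 without high-dose replicate 2. NQO1, a textbook NRF2 and AhR target, had a log2 change of 0.14 with an adjusted p of 0.28.

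Of 14 tested genes of iron handling, 4 rose and 1 fell, with a median log2 change of 0.040. Beside HMOX1, the ferritin chains that store iron were higher, FTH1 at 5338 and 5373 CPM against 6977 and 6671 CPM (log2 change 0.35, SE 0.068, edgeR adjusted p = 0.00335) and FTL at 9292 and 8636 CPM against 10986 and 10820 CPM (log2 change 0.28, edgeR adjusted p = 0.0215). ALAS1, the first enzyme of haem synthesis, was higher by 0.21. SLC40A1, the iron exporter ferroportin, was lower, at 59.5 and 61.9 CPM against 50.2 and 53.7 CPM (log2 change -0.23, edgeR adjusted p = 0.0235). Only HMOX1 of these passed in all 4 fits without 1 library: the highest adjusted p was 0.11 for FTH1, 0.35 for SLC40A1 and 0.36 for ALAS1 without high-dose replicate 2, and 0.28 for FTL without low-dose replicate 3. In vehicle SLC40A1 was at 39.3 to 44.4 CPM, below both doses, and FTL was at 9554 to 10832 CPM, overlapping the high dose. FTH1 in vehicle, at 5316 to 6034 CPM, overlapped the low dose. FTH1 and FTL have many near-identical pseudogenes, among which expected counts may be divided.

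Of 23 hypoxia targets tested, 5 rose and none fell, and the median log2 change was 0.165, with 20 members above 0. SLC2A1 (chr1:42925375-42959176, minus strand), the glucose transporter GLUT1, was at 74.3 and 68.8 CPM at the low dose, 75.5 and 68.8 CPM at the medium dose and 94.4 and 89.3 CPM at the high dose. The medium and low libraries overlapped and the high libraries lay above them. The log2 change was 0.36 (SE 0.056, edgeR adjusted p = 0.000219), and 0.35 from medium to high (edgeR adjusted p = 0.00084). ANGPTL4, a secreted lipase inhibitor, was at 45.1 and 42.8 CPM against 63.8 and 56.0 CPM (log2 change 0.45, SE 0.081, edgeR adjusted p = 0.00223). The mitophagy receptor BNIP3 changed by 0.34 (SE 0.066, edgeR adjusted p = 0.00322), the carbonic anhydrase CA12 by 0.27 (SE 0.044, edgeR adjusted p = 0.000474) and the collagen prolyl hydroxylase P4HA1 by 0.27. CA12 and SLC2A1 passed in all 4 fits without 1 library, and without high-dose replicate 2 the adjusted p was 0.13 for ANGPTL4 and 0.08 for BNIP3. P4HA1 had 0.29 without high-dose replicate 3. ANKRD37, at 0.81, did not pass (edgeR adjusted p = 0.097).

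Glycolysis enzymes gave 6 higher members of 21 tested, none lower, and a median of 0.157. ALDOC (chr17:28573115-28577264, minus strand), an aldolase isoform, was at 15.7 and 15.4 CPM at the low dose, 15.7 and 16.6 CPM at the medium dose and 23.7 and 23.5 CPM at the high dose, and 13.2 to 14.4 CPM in vehicle. Here again the step lay between the medium and the high dose, and the low-to-high change was 0.60 on the log2 scale (SE 0.082, edgeR adjusted p = 2.68e-05). The far more abundant ALDOA was at 1685 and 1677 CPM against 2179 and 2049 CPM, with a log2 change of 0.33 (edgeR adjusted p = 0.000658). GAPDH was at 7770 and 7470 CPM against 9834 and 9272 CPM, with a log2 change of 0.33 (SE 0.062, edgeR adjusted p = 0.00307). LDHA, which turns pyruvate into lactate, was at 2132 and 2143 CPM against 2497 and 2594 CPM, with a change of 0.25 (SE 0.049, edgeR adjusted p = 0.00363). GPI and PFKP rose by 0.22 and 0.18. Vehicle did not lie with the low dose for these genes: it was at 1961 to 2223 CPM for ALDOA, near the high dose, and at 1742 to 1827 CPM for LDHA, below the low dose. ALDOC passed without any 1 library, while the highest adjusted p was 0.058 for ALDOA and 0.12 for GAPDH without high-dose replicate 2, 0.092 for LDHA without high-dose replicate 3, and 0.25 for GPI and 0.30 for PFKP without low-dose replicate 3.

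In the amino acid response controlled by ATF4, 2 of 24 tested members were higher and none lower, with a median of 0.093. ASNS, asparagine synthetase, was at 34.8 and 34.3 CPM against 44.1 and 42.2 CPM (log2 change 0.32, SE 0.067, edgeR adjusted p = 0.00822), and PHGDH, the first enzyme of serine synthesis, changed by 0.27 (edgeR adjusted p = 0.0424). Without high-dose replicate 2 their adjusted p was 0.16 and 0.41. The leucine transporter SLC7A5 was the 1 member of 13 amino acid transporters to rise, from 995 and 926 CPM to 1319 and 1279 CPM (log2 change 0.44, SE 0.055, edgeR adjusted p = 7.44e-06), and it passed without any 1 library. Its partner SLC3A2 had a change of 0.19 that did not pass (edgeR adjusted p = 0.35). None of 18 aminoacyl-tRNA synthetases passed by edgeR or DESeq2, and 5 had an unadjusted p under 0.05.

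Other large increases were in genes of varied function. NOTCH3, a Notch receptor, was at 29.985 and 26.948 CPM at the low dose, 31.6 and 34.9 CPM at the medium dose and 44.4 and 42.9 CPM at the high dose (log2 change 0.62, SE 0.083, edgeR adjusted p = 2.52e-05). No other of the 11 Notch pathway genes tested passed, and vehicle libraries, at 36.9 to 43.9 CPM, reached the high-dose level. AQP3, a channel for water and glycerol, was at 62.4 and 64.2 CPM against 93.9 and 92.1 CPM, with vehicle at 56.6 to 64.7 CPM and the medium dose between them at 73.0 and 70.3 CPM. Its log2 change was 0.55 (SE 0.059, edgeR adjusted p = 3.77e-07). EEF1A2, a tissue-restricted translation elongation factor, was at 6.25 and 5.38 CPM against 8.99 and 9.70 CPM (log2 change 0.69, SE 0.127, edgeR adjusted p = 0.00223).

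OLFML2A, an extracellular matrix protein, was at 4.78 and 3.72 CPM at the low dose, 4.30 and 4.71 CPM at the medium dose and 6.60 and 6.94 CPM at the high dose (log2 change 0.68, SE 0.126). The epithelial transcription factor GRHL3 changed by 0.58, the cytochrome P450 CYP2S1 by 0.59, C10orf90 by 0.58 and the zinc finger gene ZNF385A by 0.51. Their adjusted p by edgeR lay between 0.00223 for OLFML2A and 0.0314 for CYP2S1. Without low-dose replicate 3 none of these 5 passed, nor did EEF1A2, with adjusted p of 0.17 for OLFML2A, 0.23 for GRHL3, 0.28 for CYP2S1, 0.15 for C10orf90, 0.19 for ZNF385A and 0.13 for EEF1A2. ZNF385A in vehicle, at 21.2 to 26.5 CPM, overlapped the high dose at 21.6 and 21.9 CPM, and the low dose stood below both at 16.7 and 14.0 CPM.

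**Figure D2:**
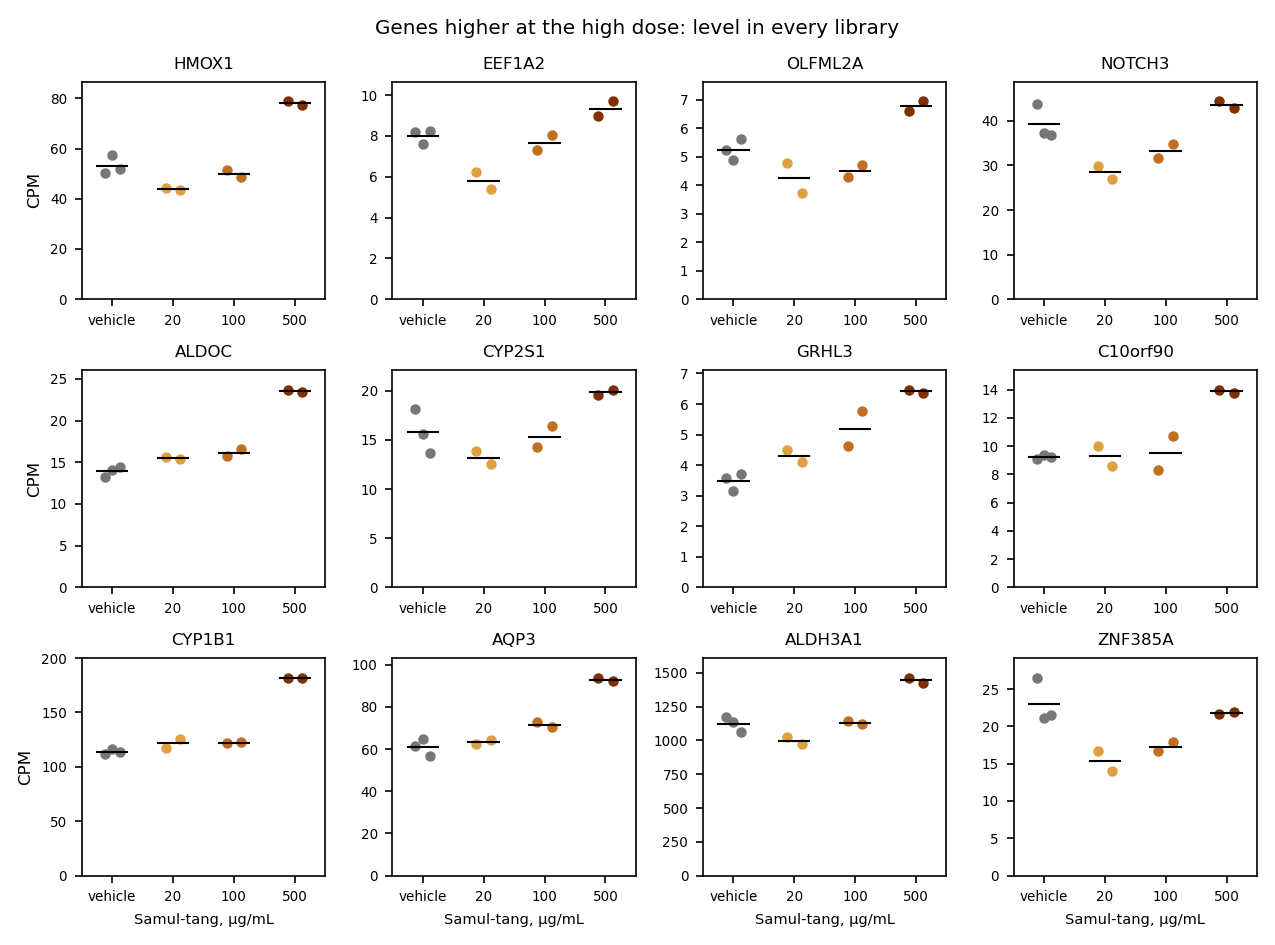
Each panel shows 1 of the 12 genes with the largest increases that met the naming rule, with CPM on the y axis from 0 and the vehicle and the 3 doses of Samul-tang in µg/mL on the x axis. Points are libraries and bars are means, and in every panel both high-dose points lie above both low-dose points, as for HMOX1 at 78.9 and 77.6 against 44.3 and 43.4 CPM.

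On the lower side, genes of NF-κB and cytokine signalling gave 3 lower members and 1 higher member of 27 tested, with a median of -0.082 and 11 members above 0. CXCL1 (chr4:73869393-73871242, plus strand), a neutrophil-attracting chemokine, was at 21.8 and 20.9 CPM at the low dose, 20.8 and 19.5 CPM at the medium dose, 11.9 and 12.9 CPM at the high dose and 19.3 to 20.5 CPM in vehicle. The high-dose libraries stood below every library of the other Samul-tang doses and of vehicle. High doses of Palmul-tang and Sibjeondaebo-tang had similar means, of 13.1 and 11.5 CPM, against 12.4 CPM with Samul-tang. With Samul-tang the low-to-high change was 1.73-fold lower, or -0.79 on the log2 scale (SE 0.099, edgeR adjusted p = 6.88e-06), and -0.70 from medium to high (edgeR adjusted p = 0.00019). CXCL5, a chemokine of the same cluster, was at 46.1 and 47.5 CPM at the low dose, 41.0 and 41.1 CPM at the medium dose and 33.9 and 34.2 CPM at the high dose (log2 change -0.46, SE 0.062, edgeR adjusted p = 2.52e-05).

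SOD2, the mitochondrial superoxide dismutase, was at 160 and 169 CPM against 124 and 130 CPM (log2 change -0.38, SE 0.063, edgeR adjusted p = 0.000608), and had an adjusted p of 0.063 without low-dose replicate 3. CXCL8 had a change of -0.81 that did not pass (edgeR adjusted p = 0.07), and TRAF1 one of -0.39 (edgeR adjusted p = 0.078). IER3, an early stress gene, moved the other way, from 19.6 and 18.2 CPM to 23.7 and 23.1 CPM (log2 change 0.31, edgeR adjusted p = 0.0366), and its adjusted p was 0.32 without low-dose replicate 3. The inhibitor TNFAIP3 was at -0.20 (edgeR adjusted p = 0.21). IL1A and IL1B were at 0.80 and 0.59, and neither passed (edgeR adjusted p = 0.76 and 0.56). None of 26 immediate early genes passed by edgeR, with a median of -0.054, while 9 had an unadjusted p under 0.05 and KLF6 passed by DESeq2.

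Genes for secreted plasma proteins, most of them typical of the liver, fell in 4 of 23 tested cases and rose in none, with a median of -0.150 and 5 members above 0. APOB (chr2:21001429-21044073, minus strand), the structural protein of low-density lipoprotein, was at 8.90 and 10.8 CPM at the low dose, 7.72 and 7.60 CPM at the medium dose and 5.14 and 6.18 CPM at the high dose (log2 change -0.80, SE 0.148, edgeR adjusted p = 0.00252). KNG1, the precursor of bradykinin, was at 18.5 and 19.7 CPM against 11.7 and 12.9 CPM (log2 change -0.64, SE 0.105, edgeR adjusted p = 0.000551), with vehicle at 11.8 to 14.0 CPM. For KNG1 it was therefore the low dose that stood apart from vehicle, and the high dose overlapped it. HP, the haemoglobin scavenger haptoglobin, was at 3.98 and 4.35 CPM against 1.46 and 1.56 CPM (log2 change -1.47, SE 0.229, edgeR adjusted p = 0.000302), and shares sequence with its close copy HPR. In vehicle APOB was at 5.64 to 7.99 CPM, overlapping the high dose, and HP was at 2.32 to 3.67 CPM, between the doses.

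The complement factor CFB was at 6.25 and 6.31 CPM against 4.65 and 4.28 CPM (log2 change -0.49, edgeR adjusted p = 0.0231), and shares exons with C2 in the annotation. CFB in vehicle, at 5.57 to 6.28 CPM, overlapped the low dose. KNG1 and HP passed without any 1 library, while without low-dose replicate 3 the adjusted p was 0.14 for APOB and 0.21 for CFB. SAA2, an acute-phase serum amyloid gene outside this list, was at 6.98 and 9.34 CPM against 4.77 and 4.78 CPM (log2 change -0.78, SE 0.123, edgeR adjusted p = 0.000249), with 0.098 without low-dose replicate 3. SAA2 overlaps the SAA2-SAA4 readthrough gene and is nearly identical to SAA1. Vehicle was at 9.62 to 10.6 CPM for SAA2, above both doses.

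Other large decreases were ANKRD1, LEFTY1, PAQR6, HAPLN3, CLDN2, GSTA1, GOLGA8B and GOLGA6L5P. ANKRD1 (chr10:90912096-90921276, minus strand), a target of YAP signalling and mechanical stress, was at 31.7 and 33.8 CPM at the low dose, 30.1 and 28.4 CPM at the medium dose and 21.1 and 21.0 CPM at the high dose, with vehicle at 30.6 to 33.6 CPM. Vehicle and low dose overlapped and the high dose lay below both (log2 change -0.64, SE 0.070, edgeR adjusted p = 5.78e-07). LEFTY1, a secreted inhibitor of Nodal with a close copy in LEFTY2, was at 34.1 and 30.1 CPM against 19.5 and 18.7 CPM (log2 change -0.75, SE 0.168, edgeR adjusted p = 0.0314), with vehicle at 19.4 to 21.3 CPM.

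PAQR6, a membrane progestin receptor, was at 11.4 and 12.2 CPM against 6.48 and 7.24 CPM (log2 change -0.79, edgeR adjusted p = 0.00281). The matrix link protein HAPLN3 changed by -0.70, the tight junction protein CLDN2 by -0.67 and the glutathione transferase GSTA1, which has near-identical relatives, by -0.65. The golgin family members GOLGA8B and GOLGA6L5P both changed by -0.60, and reads may be divided among their many copies. Vehicle overlapped the high dose for CLDN2, at 4.64 to 5.13 CPM, and GSTA1, at 6.46 to 8.48 CPM. It overlapped the low dose for HAPLN3, at 15.6 to 18.8 CPM, and GOLGA6L5P, at 11.8 to 16.8 CPM. It lay between the doses for PAQR6, at 10.2 to 11.1 CPM, and GOLGA8B, at 65.3 to 78.1 CPM. Without high-dose replicate 2 the adjusted p was 0.19 for LEFTY1, 0.11 for PAQR6, 0.13 for HAPLN3, 0.31 for CLDN2 and 0.30 for GOLGA8B. It was 0.12 for GSTA1 without low-dose replicate 3 and 0.20 for GOLGA6L5P without high-dose replicate 3. Of these 8 genes only ANKRD1 passed in all 4 such fits.

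**Figure D3:**
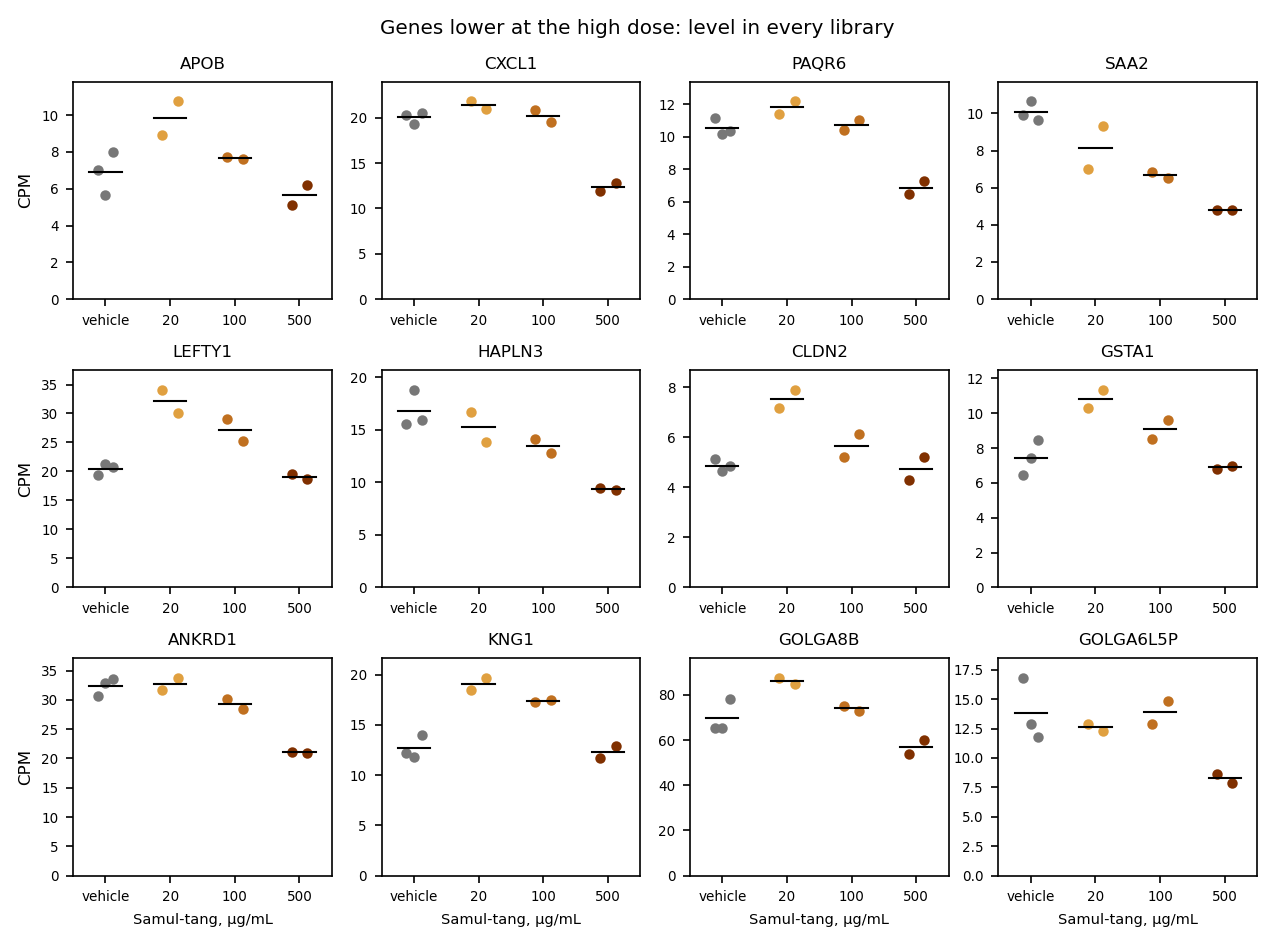
Each panel shows 1 of the 12 genes with the largest decreases that met the naming rule, with CPM on the y axis from 0 and the vehicle and the 3 doses of Samul-tang in µg/mL on the x axis. Points are libraries and bars are means, and both high-dose points lie below both low-dose points in every panel, while vehicle lies near the low dose for CXCL1 and ANKRD1 and near the high dose for LEFTY1 and KNG1.

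Of 29 genes of mitosis tested, 4 passed, all higher, and the median log2 change was 0.173, with 28 values above 0. The other 25 did not pass, among them CDK1 at 0.02 (edgeR adjusted p = 0.947). PLK1, a mitotic kinase, was at 115 and 107 CPM against 138 and 136 CPM (log2 change 0.30, SE 0.077, edgeR adjusted p = 0.0453). The spindle kinesin KIF20A changed by 0.28, the checkpoint target CDC20 by 0.27 and the midzone protein PRC1 by 0.18. Vehicle was at 136 to 142 CPM for PLK1, near the high dose. For CDC20 it was at 79.4 to 84.1 CPM, above the high dose at 73.7 and 72.4 CPM. It lay between the doses for KIF20A, at 58.9 to 61.8 CPM, and near the low dose for PRC1, at 127 to 129 CPM. None of the 4 passed in every fit without 1 library: the highest adjusted p was 0.34 for PLK1, 0.18 for KIF20A and 0.37 for CDC20 without low-dose replicate 3, and 0.31 for PRC1 without high-dose replicate 2. TYMS, thymidylate synthase, was the 1 member of 35 DNA replication genes to pass, at 0.28 (edgeR adjusted p = 0.0106), and 0.20 without high-dose replicate 2. TYMS in vehicle was at 52.4 to 54.9 CPM, near the high dose at 55.2 and 52.5 CPM and above the low dose at 44.9 and 44.2 CPM. The TYMS locus overlaps ENOSF1 and TYMSOS on the other strand.

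Lipid genes gave single changes in either direction. In cholesterol synthesis and uptake 2 of 24 tested genes fell, among them HMGCS1, an early enzyme of the pathway, from 214 and 233 CPM to 180 and 182 CPM (log2 change -0.30, SE 0.053, edgeR adjusted p = 0.00102). The fatty acid elongase ELOVL6 changed by -0.21 on the log2 scale (edgeR adjusted p = 0.0366). PLIN2, a lipid droplet coat protein, was at 57.0 and 57.7 CPM against 70.5 and 73.5 CPM (log2 change 0.33, SE 0.055, edgeR adjusted p = 0.000641), and it alone of these passed without any 1 library. The adjusted p was 0.13 for HMGCS1 without low-dose replicate 3 and 0.39 for ELOVL6 without high-dose replicate 2.

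Among lysosome and autophagy genes 3 of 23 rose: the proteases CTSL, by 0.31, and CTSD, by 0.21, and the autophagy receptor SQSTM1, itself an NRF2 target, by 0.28. CTSL passed without any 1 library. SQSTM1 had an adjusted p of 0.13 without low-dose replicate 3, and CTSD one of 0.44 without high-dose replicate 2. Of 21 BMP and TGF-β targets tested, 1 rose and 1, LEFTY1, fell.

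PLIN2 and ANGPTL4 were the 2 higher members of 19 genes of fatty acid oxidation and PPAR signalling. The remaining lists held at most 1 call in each direction. VIM, the intermediate filament vimentin, rose by 0.26 and CLDN2 fell among 20 epithelial and mesenchymal genes. The interferon signal transducer STAT2 changed by -0.31 among 24 interferon-stimulated genes. BAG3, a co-chaperone, changed by 0.34 among 15 heat shock genes, and KLF9 by -0.27 and ANGPTL4 by 0.45 among 20 glucocorticoid and FOXO targets. UGT1A1, which shares exons with the other UGT1A genes, changed by 0.31 and GSTA1 by -0.65 among 19 conjugation enzymes, and CEACAM6 and PGC by 0.30 and -0.52 among 15 mucin and gastric-type genes. Each of these calls was lost without at least 1 library: the highest adjusted p was 0.33 for BAG3, 0.26 for KLF9, 0.14 for VIM and 0.13 for PGC without low-dose replicate 3, 0.11 for CEACAM6 without high-dose replicate 3, 0.29 for STAT2 without high-dose replicate 2 and 0.18 for UGT1A1 without low-dose replicate 2. Vehicle overlapped the high dose for BAG3, VIM and PGC and the low dose for CEACAM6. It lay between the doses for STAT2 and below both for KLF9 and UGT1A1. No member passed by edgeR among 23 p53 targets, 21 genes of the unfolded protein response, 5 metallothionein and zinc genes, 10 multidrug transporters, 17 clock genes, 30 ribosomal proteins or 26 respiratory chain subunits. Over the 9 lists with no call by edgeR, which hold 176 tested members, 38 members had an unadjusted p under 0.05 and 2 passed by DESeq2 (KLF6 and PDIA6). Ribosomal proteins had 29 members above 0 with a median of 0.074. In all, 24 of the 33 lists held a called member.

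**Figure D4:**
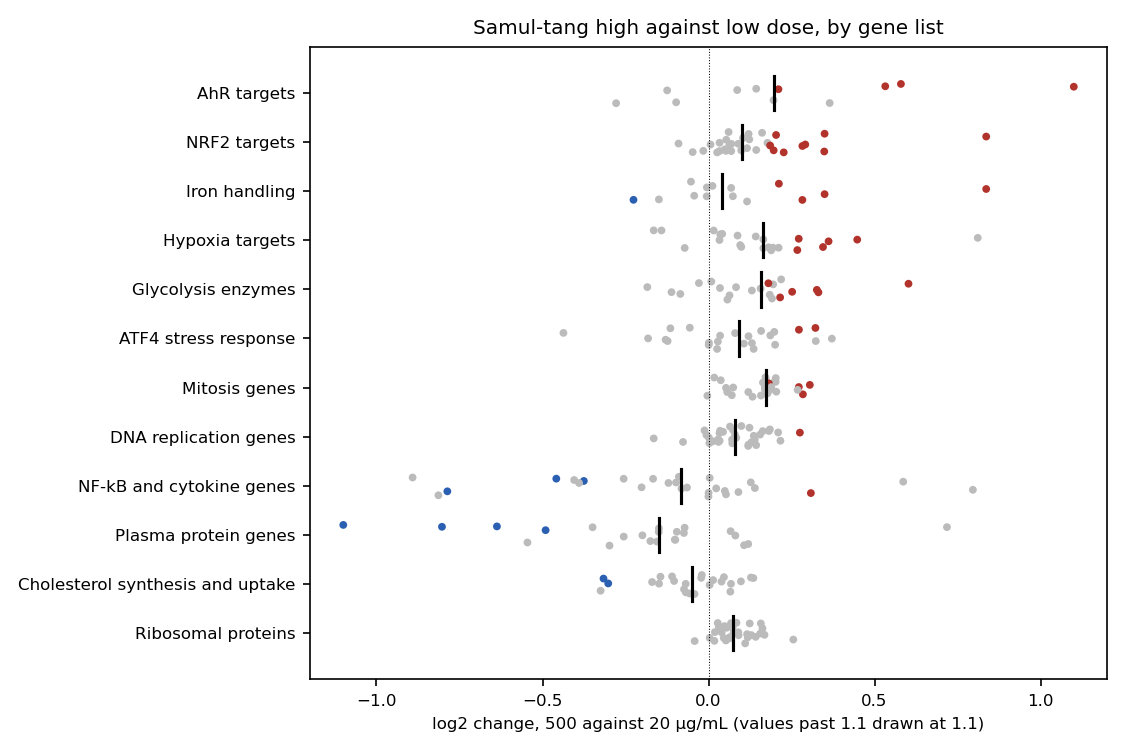
Each row is 1 of 12 gene lists, each point is a tested member, and the x axis gives its log2 change from 20 to 500 µg/mL of Samul-tang, with values beyond 1.1 in size drawn at 1.1. Red members rose and blue members fell by edgeR's adjusted p, grey members did not pass, and the black bar is the median, which lies at 0.196 for AhR targets, 0.173 for mitosis genes and -0.150 for plasma proteins.

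The medium dose separates the range into parts. Between 100 and 500 µg/mL, 60 genes passed (0.339%), 30 in each direction. Between 20 and 100 µg/mL, none passed by edgeR (0.0%), with 988 at an unadjusted p under 0.05 and 1 gene by DESeq2. The medium mean lay between the low and high means in 101 of the 107 higher genes and 124 of the 131 lower genes, where the medium mean lay above the low mean in as many of all tested genes as it lay below. These comparisons share the low or the high libraries, and genes were picked for the distance between those libraries. The median share of the low-to-high difference in CPM already reached at the medium dose was 32.9% for the higher genes (quartiles 20.8% and 46.4%) and 38.3% for the lower genes (quartiles 25.4% and 51.8%). The largest changes from medium to high that met the naming rule were HMOX1 (0.64), OLFML2A (0.59), CYP1B1 (0.57) and ALDOC (0.55) upward and GOLGA6L5P (-0.74), CXCL1 (-0.70), PAQR6 (-0.65) and STAC2 (-0.65) downward. STAC2, an adaptor of calcium channels, did not pass from low to high, at -0.30 (edgeR adjusted p = 0.421).

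Vehicle did not sit at the low end of the dose range for many of these genes. Its mean lay between the low and high means in 57 of the 107 higher genes, beyond the high mean in 24 and below the low mean in 26. For the 131 lower genes the numbers were 73 between, 30 beyond the high mean and 28 beyond the low mean. SLC7A5 shows this, with vehicle at 1223 to 1252 CPM near the high dose. Whether library code or handling contributes to the vehicle's position cannot be told apart from the treatment. The genes were picked for the distance between low and high dose. The position of vehicle over all tested genes was not computed, so the counts above have no reference.

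The same dose range of the larger formulas Palmul-tang and Sibjeondaebo-tang, which contain the herbs of Samul-tang, was measured in other libraries, so the genes could be read there without shared samples. The spread of each gene was still shared over all groups, so calls in different formulas are not fully independent. Palmul-tang gave 615 calls (3.47%; 258 higher, 1.46%, and 357 lower, 2.02%) with 3 libraries per dose. Of the 107 genes higher with Samul-tang, 103 were above 0 with Palmul-tang and 60 were called higher, which is 56.1% of the Samul-tang list and 23.3% of the Palmul-tang list. Of the 131 lower genes, 126 were below 0 and 80 were called lower, which is 61.1% of the Samul-tang list and 22.4% of the Palmul-tang list. Over all tested genes, 51.2% were above 0 and 48.8% were below 0 with Palmul-tang. The median log2 changes of the higher and lower genes with Palmul-tang were 0.183 and -0.266. No gene was called in opposite directions in the 2 formulas.

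Sibjeondaebo-tang gave 6805 calls (38.4%; 3276 higher, 18.5%, and 3529 lower, 19.9%), and 98 of the 107 higher genes (91.6%; 2.99% of its own list) and 117 of the 131 lower genes (89.3%; 3.32% of its own list) were called there in the same direction. The median changes were 0.363 and -0.508, and 1 lower gene was called higher. In Sagunja-tang, with 1 library per dose and no test, 93 of the 107 and 118 of the 131 genes moved in the same direction. The share over all tested genes was not computed for Sagunja-tang, so these counts have no reference. CYP1B1 changed by 0.58 with Samul-tang, 0.75 with Palmul-tang and 0.89 with Sibjeondaebo-tang. ALDH3A1 changed by 0.53, 0.74 and 0.83, and HMOX1 by 0.84, 0.58 and 0.90, in the same order. In Sagunja-tang, with 1 library per dose, the changes were 1.08 for CYP1B1, 0.99 for ALDH3A1 and 0.38 for HMOX1. CYP1B1 and ALDH3A1 thus changed more there than with Samul-tang, and HMOX1 less, which was not tested.

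**Figure D5:**
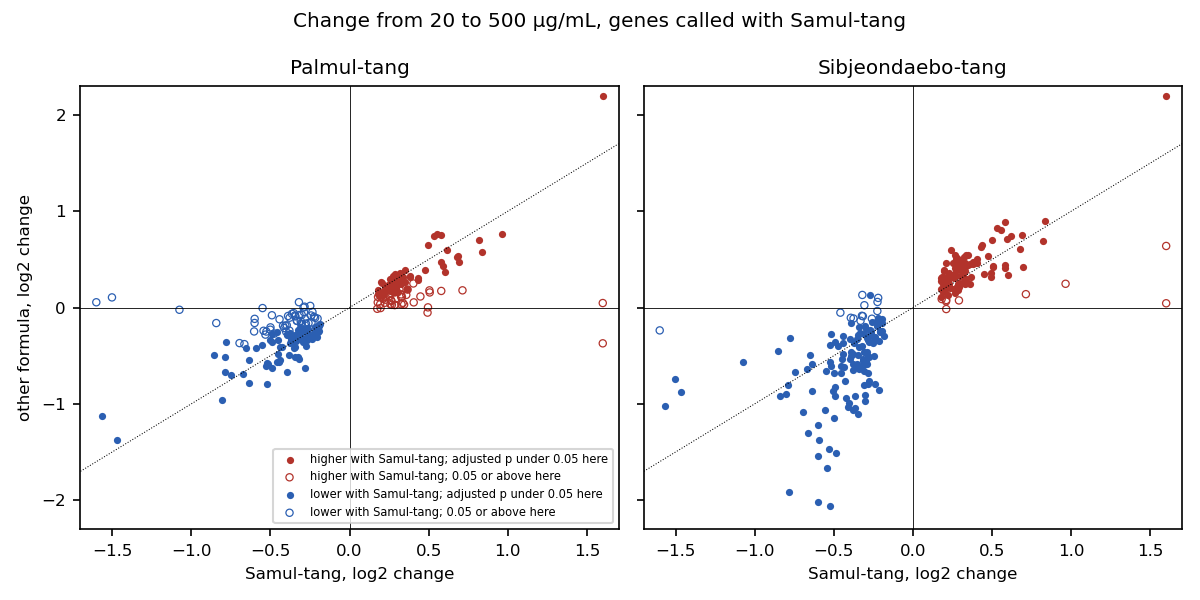
Each point is 1 of the 238 genes called in Samul-tang, with its log2 change from 20 to 500 µg/mL of Samul-tang on the x axis and of Palmul-tang (left) or Sibjeondaebo-tang (right) on the y axis, drawn at 1.6 and 2.2 where larger. Filled points also passed edgeR's adjusted p in the other formula, open points did not, and the dotted line marks equal change. Most points share their sign, and many lower genes lie below the dotted line with Sibjeondaebo-tang.

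A test of the difference itself found 1 gene whose high-minus-low change differed between Samul-tang and Palmul-tang (0.00565%; 927 at an unadjusted p under 0.05, and 13 by DESeq2). This was ID2, an inhibitor of helix-loop-helix factors and a BMP target. It was at 19.3 ± 0.942 CPM at the low dose and 19.7 ± 0.189 CPM at the high dose of Samul-tang (SD, n = 2), and at 20.8 ± 1.07 and 13.7 ± 0.96 CPM with Palmul-tang (SD, n = 3). Its change was 0.03 with Samul-tang and -0.61 with Palmul-tang, a difference of 0.63 (SE 0.107, edgeR adjusted p = 0.0221), and it was not among the 13 by DESeq2. The ID2 difference ran from 0.596 to 0.698 over fits without 1 of the 10 libraries and kept an adjusted p under 0.05 only without Palmul-tang replicate 2 at either dose. Of the 238 genes none passed this test between these formulas, which does not show that they act alike. Hypoxia targets had a median of 0.165 with Samul-tang, 0.006 with Palmul-tang and 0.063 with Sibjeondaebo-tang, and plasma protein genes had -0.150, -0.335 and -0.358. These list medians were not tested against each other. In mitosis genes, 21 of 29 were called higher with Palmul-tang, with a median of 0.236, where 1.46% of all genes were called higher. With Samul-tang 4 of the 29 were, with a median of 0.173, where 0.604% of all genes were. Palmul-tang had 3 libraries per dose and Samul-tang 2, so these counts of calls differ in power and do not show a difference between the formulas.

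Against Sibjeondaebo-tang the difference passed in 1123 genes (6.34%), of which 841 were higher (4.75%) and 282 lower (1.59%) with Samul-tang. Of the genes called with Samul-tang, 9 higher and 38 lower ones were among them. The AhR targets CYP1B1 and ALDH3A1 rose less with Samul-tang than with Sibjeondaebo-tang, with differences of -0.31 and -0.30, and CXCL5 and SOD2 were lowered more, with differences of -0.41 and -0.26. CXCL5 changed by -0.46 with Samul-tang and -0.05 with Sibjeondaebo-tang, where it did not pass (edgeR adjusted p = 0.43). GOLGA8B changed by -0.60 and -2.02, and PAQR6 by -0.79 and -1.91. Among the genes with the smallest adjusted p for this difference, LUC7L3, a splicing factor, was at -0.18 with Samul-tang and -1.10 with Sibjeondaebo-tang, and OGT, the O-GlcNAc transferase, at -0.17 and -1.10. HERC2P9, a pseudogene, was at -0.30 and -1.51. None of the 3 passed with Samul-tang, though HERC2P9 did without the filter on low counts (edgeR adjusted p = 0.0396).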

How the data were processed

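RNA was measured in 30 libraries of A549 cells in 13 groups, and 4 of the libraries form the comparison. The deposited table gives RSEM's expected counts by gene, made by the authors with version 1.3.3 after FastQC 0.11.9, Trim Galore 0.6.5 and STAR 2.7.3a on GRCh38 (hg38), per the submitters' processing notes. The annotation release is not given in the sources used here, and neither is how strand was set. Expected counts divide a read shared by several genes among them, and from 8.50% to 9.82% of the values in a library were not whole. They were rounded. Gene symbols were matched for 56558 of 60675 rows and positions for 57055 (GENCODE 29). The table's other 240 columns were not used.

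Genes were filtered with filterByExpr (17701 kept), scaled by TMM (factors 0.923 to 1.051) and fitted over all 30 libraries in edgeR 4.0.16 under R 4.3.3 (glmQLFit, robust, glmQLFTest; 17 residual degrees of freedom, common dispersion 0.00246), with Benjamini-Hochberg adjustment at 0.05. The SE of a log2 change is its size divided by the square root of F. Totals were 28579639 to 33666990 counts, and precision rests on the spread between replicates as well as on these totals. On data simulated for this comparison over 17390 genes, 16% of genes changed by 0.25, 54% by 0.5, 80% by 1 and 94% by 2 on the log2 scale were recovered, and 1.61% of 124 calls were unchanged genes.

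Named genes were the 12 largest calls in each direction with a symbol, a mean log2 CPM of 2 or more and libraries that do not overlap, up to 4 called members of each of 33 lists by smallest adjusted p, the 4 genes of smallest adjusted p in each direction in each difference from another formula, and the 4 largest each way from medium to high. The members and lists were chosen with earlier results of these data known. Of 688 listed genes 648 were tested. List members outside the rule are given with values only.

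Replicates of a group did not agree within sampling noise, so none was counted as a duplicate. Same-numbered Samul-tang libraries had correlations of deviations of 0.073, -0.002 and 0.048, and over all 111 same-number pairs the median was 0.006, so numbers were not used as pairs. Alternatives were DESeq2 1.42.0, RLE factors, no filter on low counts, a block for replicate number, fits to fewer groups and leaving out each library. The fit without vehicle and high-dose Sibjeondaebo-tang was chosen after seeing the data. A few genes that met the naming rule are not reported here.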

Additional observations from a re-analysis of the deposited data

Results flagged for a closer look

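The change from 20 to 500 µg/mL differed between Samul-tang and another formula, by a test of the difference itself, in 1 gene against Palmul-tang and in 1123 genes against Sibjeondaebo-tang. The 1 gene was ID2, whose change was 0.63444 higher on the log2 scale with Samul-tang. Against Sibjeondaebo-tang, 4 genes with the smallest adjusted p had a higher change with Samul-tang: HERC2P9 by 1.218, AC006058.1 by 0.97557, OGT by 0.92886 and LUC7L3 by 0.92409. With Samul-tang none of these 4 passed the test, and with Sibjeondaebo-tang their levels went from 23.9 to 8.37 CPM for HERC2P9, from 66.6 to 33.1 CPM for AC006058.1, from 211 to 98.7 CPM for OGT and from 155 to 72.2 CPM for LUC7L3. HERC2P9 belongs to a family of near-identical copies. In the other direction the difference was -0.511 for SNX8, -0.46265 for TUBB3 and -0.40373 for AL049839.2. AL049839.2 shares exons with SERPINA3 and SERPINA5 on its strand and fell with Samul-tang, by -0.27 (edgeR adjusted p = 0.00495), where it rose by 0.13 with Sibjeondaebo-tang (edgeR adjusted p = 0.018). The 3 high-dose Sibjeondaebo-tang libraries stand apart from all others of the series, and the part this plays in the differences was not tested.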

How the results depend on the processing

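The 238 calls from low to high numbered 243 with RLE factors, of which 236 were among the 238. Without a filter on low counts 230 genes were higher and 234 lower, 116 passed from medium to high, 8 from low to medium, and 21 differed from Palmul-tang. In the fit with a replicate block, 373 genes passed from low to high (157 higher, 216 lower), 82 from medium to high and 3 differed from Palmul-tang, and all 238 calls were kept. The labels do not say what the replicate numbers stand for, and the weak correlations between same-numbered libraries do not settle whether they are paired. Fitting only the groups compared gave 211 higher and 277 lower, 11 from low to medium and 3 against Palmul-tang, and fitting only the 6 Samul-tang libraries gave 153 higher and 233 lower. DESeq2 gave 169 higher and 152 lower, with 192 of the 238 shared, 1 from low to medium and 13 against Palmul-tang. The fit without vehicle and high-dose Sibjeondaebo-tang, added after seeing the data, gave 214 calls, 1 from low to medium and 3 against Palmul-tang. The cause of these shifts was not tested. Leaving out 1 library at a time gave from 22 to 69 higher and from 27 to 80 lower genes, 14 to 27 from medium to high, 0 to 1 from low to medium, 0 to 1 against Palmul-tang and 473 to 1232 against Sibjeondaebo-tang. A dose left with 1 library was assumed to vary like the other groups. No named gene reversed its direction in any of these fits. With 2 libraries per dose and the spread and depth of these libraries, changes near 0.25 on the log2 scale were mostly not recovered on simulated data.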

Other observations

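Some lower genes outside the rule for naming were chosen after their values were seen. They include the basement membrane collagens COL4A3, at 83.6 and 79.7 CPM at the low dose against 53.02 and 55.3 CPM at the high dose (log2 change -0.59, edgeR adjusted p = 0.000144), and COL4A4, at 185 and 187 CPM against 138 and 148 CPM (-0.38, edgeR adjusted p = 6.95e-05). ITGA1, the integrin chain that binds type IV collagen, was at 128 and 141 CPM against 95.9 and 99.9 CPM (-0.46, edgeR adjusted p = 3.09e-06). VIL1, the microvillus protein villin, was at 2.93 and 3.05 CPM against 0.961 and 1.06 CPM (-1.56, edgeR adjusted p = 6.95e-05). COL4A1, another type IV collagen chain, did not pass, at -0.01 (edgeR adjusted p = 0.973). In all 4 called genes the medium-dose libraries lay between, and each passed without any 1 library.

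Also chosen after their values were seen were C5 and CFI, both of the complement system. C5 was at 148 and 165 CPM against 115 and 126 CPM (-0.38, edgeR adjusted p = 0.000608) and CFI at 21.9 and 23.6 CPM against 16.0 and 17.3 CPM (-0.45, edgeR adjusted p = 0.000919). Neither passed in all 4 fits without 1 library, and C3, the central complement component, did not pass, at -0.10 (edgeR adjusted p = 0.528). On the higher side POR, the reductase that supplies electrons to cytochrome P450 enzymes, was at 149 and 145 CPM against 178 and 181 CPM (0.29, edgeR adjusted p = 0.000758) and passed without any 1 library.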
